A study of Mus musculus with 8 samples.

Results

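The auxiliary subunits of voltage-gated calcium channels are the products of 8 mouse genes, the 4 alpha2delta genes Cacna2d1, Cacna2d2, Cacna2d3 and Cacna2d4 and the 4 beta genes Cacnb1, Cacnb2, Cacnb3 and Cacnb4. They were chosen by name, and all 8 were found by gene identifier among the 55573 genes of the deposited count table. Expression was measured by polyadenylated RNA sequencing of C low-threshold mechanoreceptors (C-LTMRs), unmyelinated sensory neurons of the skin that respond to gentle touch, sorted by GFP fluorescence from adult mice. There were 4 groups of 2 libraries: male Bhlha9 knockout (KO), male wild type (WT), female Bhlha9 KO and female WT. The series' design text calls the 2 libraries of a group biological replicates. Bhlha9 encodes a basic helix-loop-helix transcription factor, and the series' title concerns its loss, temperature choice, formalin-evoked pain and differences between the sexes. The kind of KO allele, the strain, the driver of GFP, the ganglia taken and the number of animals per library are not given in the sources used here.

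Voltage-gated calcium channels open on depolarization and let calcium into the neuron, at nerve endings to release transmitter and at the soma to shape firing. The pore is formed by an alpha1 protein. High-voltage-activated pores assemble with a cytosolic beta subunit, which binds the loop between the first and second repeats, promotes surface expression and shifts gating, and with an extracellular, membrane-anchored alpha2delta subunit, which promotes trafficking to the membrane and to release sites. Low-voltage-activated (T-type) pores conduct without either subunit. In sensory neurons the alpha2delta protein of Cacna2d1 is known for its increase after nerve injury and as the main target of gabapentin and pregabalin.

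The libraries held between 50919885 and 71956309 counts, so that 3 counts corresponded to between 0.0421 and 0.0587 CPM (counts scaled to the size of the library). Bhlha9, the deleted gene, stood at 0.156 and 0.277 CPM in male KO and at 0.470 and 0.253 CPM in female KO libraries, against 151 and 161 CPM in male WT and 140 and 127 CPM in female WT libraries, which checks the genotype labels. The 8 C-LTMR markers were detected in all 8 libraries, and their summed level ran between 4599 and 7772 CPM in KO and between 5954 and 7148 CPM in WT libraries. One library stood apart, male KO library 1. It had the lowest level of tyrosine hydroxylase (Th), 2976 CPM, and 1551 CPM of the heavy neurofilament gene Nefh of myelinated afferents, which ran between 69.5 and 296 CPM in the other KO libraries and between 61.4 and 105 CPM in the WT libraries. Male KO and WT libraries also differed in summed markers without overlap: C-LTMR markers had 4599 and 6442 CPM in male KO against 7148 and 6942 CPM in male WT, and peptidergic markers 1190 and 1707 CPM in male KO against 327 and 361 CPM in male WT. Nonpeptidergic and itch markers had 52.6 and 210 CPM in male KO against 6.61 and 8.68 CPM in male WT, and myelinated markers 2061 and 489 CPM in male KO against 374 and 241 CPM in male WT. In females these 4 sums overlapped between KO and WT libraries. Glial markers were present in all 8 libraries, with sums between 3407 and 6035 CPM in KO and between 3644 and 5847 CPM in WT. In such bulk libraries fewer cells of a type and less RNA per cell cannot be told apart.

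The starts of the genes are shown here because Bhlha9 belongs to a class of factors that bind E-boxes, and because the most abundant and a nearly silent beta gene can be set side by side. RefSeq promoter windows on GRCm38.p6, from 250 bases before to 50 bases after an annotated start, were found for 7 of the 8 genes, 12 windows in all. Capitals mark each E-box, written CANNTG, a motif that reads alike on both strands. Each sequence runs 5′ to 3′ on the strand of its gene.
Cacnb3 upstream start (chr15:98632078-98632377, plus strand): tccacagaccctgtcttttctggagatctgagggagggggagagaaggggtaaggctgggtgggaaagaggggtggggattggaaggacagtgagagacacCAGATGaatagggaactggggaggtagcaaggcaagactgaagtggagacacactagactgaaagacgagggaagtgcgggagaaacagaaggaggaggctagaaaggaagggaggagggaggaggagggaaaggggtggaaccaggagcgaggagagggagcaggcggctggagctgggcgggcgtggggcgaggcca
Cacnb3 downstream start (chr15:98634517-98634816, plus strand): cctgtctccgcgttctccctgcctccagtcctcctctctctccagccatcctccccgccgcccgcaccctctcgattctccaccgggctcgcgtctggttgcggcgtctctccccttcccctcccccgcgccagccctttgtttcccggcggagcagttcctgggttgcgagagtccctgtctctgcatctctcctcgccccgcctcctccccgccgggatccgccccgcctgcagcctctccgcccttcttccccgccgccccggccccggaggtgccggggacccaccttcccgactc
Cacnb2 upstream start (chr2:14604056-14604355, plus strand): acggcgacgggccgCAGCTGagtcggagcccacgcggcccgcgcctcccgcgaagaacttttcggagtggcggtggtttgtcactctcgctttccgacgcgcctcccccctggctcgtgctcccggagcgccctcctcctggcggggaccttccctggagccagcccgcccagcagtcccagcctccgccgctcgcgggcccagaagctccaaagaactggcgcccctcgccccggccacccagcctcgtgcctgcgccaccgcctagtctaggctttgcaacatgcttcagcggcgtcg
Cacna2d3 start (chr14:29721815-29722114, minus strand): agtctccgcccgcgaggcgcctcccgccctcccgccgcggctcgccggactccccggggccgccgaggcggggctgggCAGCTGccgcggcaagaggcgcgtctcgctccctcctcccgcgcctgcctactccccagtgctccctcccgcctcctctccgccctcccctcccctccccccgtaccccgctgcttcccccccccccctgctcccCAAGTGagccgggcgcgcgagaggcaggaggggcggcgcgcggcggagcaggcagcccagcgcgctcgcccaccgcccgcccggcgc
The downstream Cacnb3 window held no CANNTG and the upstream one held 1. The near-silent Cacnb2 had 1 in the window printed, and its other window held 4. Cacna2d3 had 2. Over the 12 windows, 6 held at least 1 CANNTG, whereas the motif was present in 72.3% of the 32851 promoter windows of the RefSeq table. The starts of Cacna2d1, Cacna2d2 and Cacna2d3 and the first windows of Cacnb1, Cacnb2 and Cacnb4 were rich in CpG, with between 34 and 43 CpG dinucleotides in 300 bases, against a median of 7 over all windows. Cacnb3 differed from these in its upstream window, which had 7 CpG, while its downstream window had 29. The gene counts do not tell which start was used, and a motif match is a description of letters, not of binding.

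Cacnb3 was by far the most abundant auxiliary subunit in C-LTMRs. Levels were compared between genes as CPM per kilobase of the exon length in the count table, with the mean and SD over the 8 libraries. Cacnb3 averaged 159 ± 28.0 CPM per kilobase (SD, n = 8 libraries), above 97.9% of the 22013 tested genes. Next came Cacnb4 with 11.6 ± 1.73, Cacna2d3 with 10.6 ± 1.52, Cacnb1 with 8.98 ± 1.21 and Cacna2d1 with 8.36 ± 2.37 CPM per kilobase. Cacna2d2 averaged 1.07 ± 0.479 CPM per kilobase, and Cacnb2 and Cacna2d4 were near 0. Cacnb3 was 13.7-fold above Cacnb4 in mean level per kilobase and higher in 8 of 8 libraries, without overlap of their ranges. From Cacnb4 down to Cacna2d1 the ranges of neighbours overlapped, so the order of these 4 genes is not settled by the libraries. Their order also changed with the length used: over the longest coding transcript Cacna2d3 ranked 2 and Cacnb4 ranked 4. Cacna2d1 was above Cacna2d2 in 8 of 8 libraries, 7.84-fold in mean level per kilobase.

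**Figure D1:**
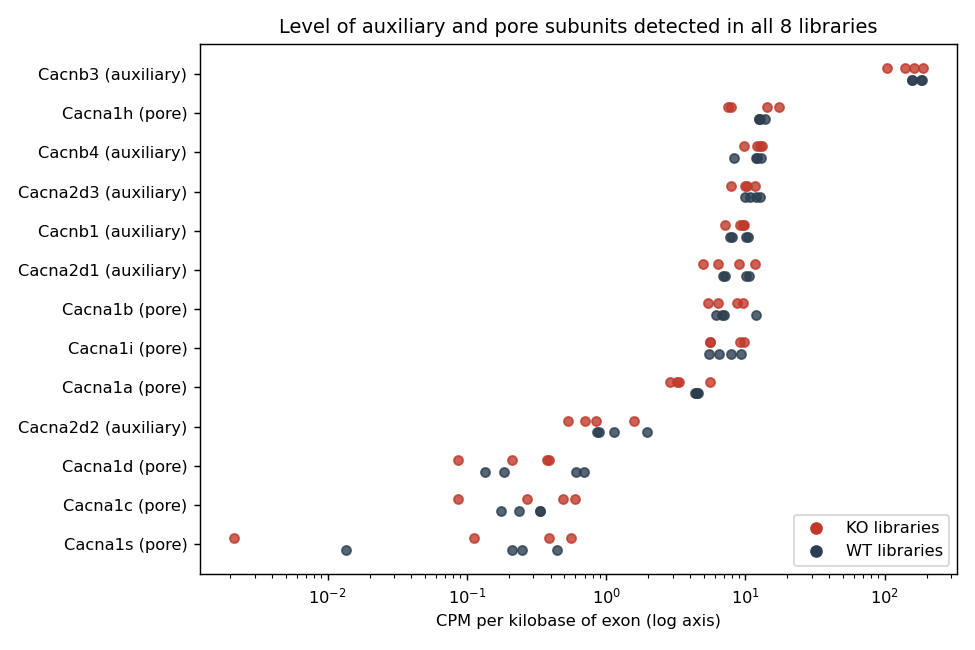
Level of the auxiliary and pore subunits detected in all 8 libraries, as CPM per kilobase of exon on a log axis, with 1 point per library and KO libraries above WT libraries in each row. Cacnb3 lies between 103 and 188 CPM per kilobase, apart from every other gene plotted, and Cacna2d2 lies below the other auxiliary subunits.

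Within each family 1 or 2 genes made up most of the level. Cacnb3 was 84.2 to 90.6% of the summed beta level per kilobase in KO libraries and 88.2 to 90.3% in WT libraries. Cacna2d3 was 45.0 to 59.1% of the summed alpha2delta level in KO and 51.1 to 54.8% in WT libraries, and Cacna2d1 was 36.7 to 51.3% in KO and 35.2 to 45.1% in WT. The summed alpha2delta level ran between 13.5 and 22.9 CPM per kilobase in KO and between 18.2 and 23.7 in WT, and the summed beta level between 123 and 208 in KO and between 175 and 204 in WT. The ranges of both sums overlapped between the genotypes. The summed beta level was 8.96 to 21.2 times the summed level of the high-voltage-activated pores in KO and 10.2 to 16.9 times in WT libraries. For alpha2delta this ratio was 1.38 to 1.83 in KO and 1.35 to 1.97 in WT. The shares and ratios depend on the length used and were computed over the exon length only. Over the longest coding transcript Cacna2d3 averaged 25.1 and Cacna2d1 13.95 CPM per kilobase, against 10.6 and 8.36 over the exon length. The ratios compare transcripts per length and say nothing of protein.

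**Figure D2:**
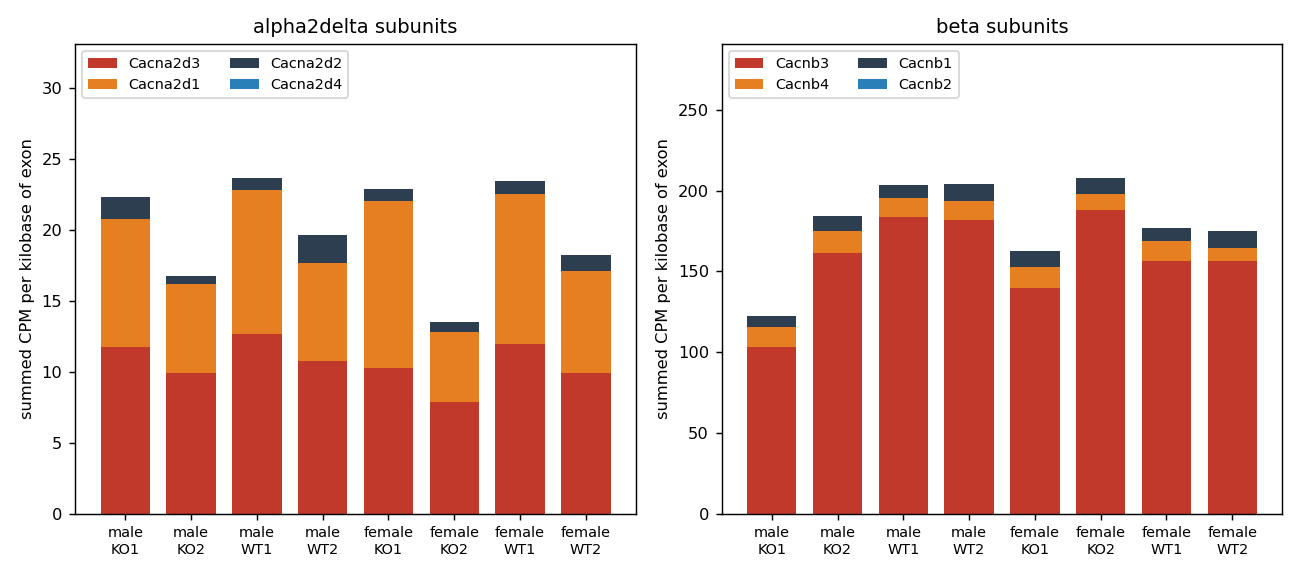
Summed level of the 4 alpha2delta genes (left) and the 4 beta genes (right) in each library, as CPM per kilobase of exon, with KO libraries left of WT libraries within each sex and colours for the genes. Cacna2d3 and Cacna2d1 fill most of the left bars, which run between 13.5 and 23.7, and Cacnb3 fills most of the right bars, which run between 123 and 208.

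Cacna2d3 (ENSMUSG00000021991, GRCm38 chr14:28904943-29721864, minus strand, 40 exons) encodes an alpha2delta protein that is linked to the sensing of noxious heat in flies and mice. It stood at 102 and 86.3 CPM in male KO, 111 and 93.9 CPM in male WT, 89.8 and 68.5 CPM in female KO and 105 and 86.4 CPM in female WT libraries. The lowest library was a female KO one, and the groups overlapped in each sex. Its log2 fold change of KO over WT was -0.19 across both sexes (SE 0.14, 95% interval -0.53 to 0.14), with -0.12 (SE 0.22) in males and -0.27 (SE 0.22) in females.

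Cacna2d1 (ENSMUSG00000040118, GRCm38 chr5:15934691-16374511, plus strand, 42 exons), the gabapentin-binding subunit, had 112 and 78.4 CPM in male KO and 126 and 85.9 CPM in male WT libraries. In females it had 146 and 61.5 CPM in KO and 131 and 89.3 CPM in WT libraries. Both the highest and the lowest of the 8 libraries were female KO, so the 2 libraries of that group lay further apart than the genotypes did. The log2 fold change was -0.12 across both sexes (SE 0.29, 95% interval -0.81 to 0.56).

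Cacna2d2 (ENSMUSG00000010066, GRCm38 chr9:107399612-107529343, plus strand, 40 exons) is the gene mutated in the ataxic ducky mouse, and its protein also binds gabapentin. Its levels were 12.7 and 4.24 CPM in male KO and 6.87 and 15.5 CPM in male WT libraries, and 6.72 and 5.56 CPM in female KO and 7.08 and 9.09 CPM in female WT libraries. Both female KO libraries were below both female WT libraries, while the male groups overlapped. The log2 fold change across both sexes was -0.40 (SE 0.42, 95% interval -1.37 to 0.57).

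Cacna2d4 (ENSMUSG00000041460, GRCm38 chr6:119236526-119352407, plus strand), the alpha2delta gene of photoreceptors, had 0 counts in 7 libraries and 1 count in a female WT library. It was therefore not tested, and a count of 0 allows up to 3 counts, or between 0.0421 and 0.0587 CPM by library, counting error only.

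Cacnb3 (ENSMUSG00000003352, GRCm38 chr15:98630840-98644529, plus strand, 17 exons) encodes a beta subunit that is common in neuronal N-type channels. It stood at 414 and 648 CPM in male KO and 736 and 729 CPM in male WT libraries, so both male KO libraries lay below both male WT libraries. In females it stood at 561 and 755 CPM in KO and at 626 and 627 CPM in WT, and the KO values lay on either side of the WT values. The log2 fold change was -0.46 in males (SE 0.25, 95% interval -1.05 to 0.12) and 0.07 in females (SE 0.25, 95% interval -0.51 to 0.66). The sexes differed by -0.53 in this change (SE 0.35, 95% interval -1.36 to 0.29), which did not pass (edgeR unadjusted p = 0.169, adjusted p = 0.999921). The lowest value, 414 CPM, was in male KO library 1, the library with high Nefh and low Th, and without it the log2 fold change in males was -0.18 and that across both sexes -0.03, against -0.20 with it. In both male KO libraries the C-LTMR sum was also lower, and the sums of the other 3 sensory neuron lists higher, than in both male WT libraries. The part of these markers in the male difference was not tested.

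Cacnb4 (ENSMUSG00000017412, GRCm38 chr2:52428320-52676831, minus strand, 19 exons) is the beta gene mutated in the lethargic mouse, which has ataxia and seizures. It had 109 and 118 CPM in male KO and 107 and 108 CPM in male WT libraries, and 115 and 87.1 CPM in female KO and 115 and 74.0 CPM in female WT libraries. Both male KO libraries were above both male WT libraries by a small step, and the female groups overlapped. The log2 fold change was 0.09 across both sexes (SE 0.16, 95% interval -0.29 to 0.47). Its exons share 1433 bp with A430018G15Rik on the opposite strand, and counting took no account of strand. The counts of that gene came to 21.9 to 33.4% of those of Cacnb4, so the level of Cacnb4 is uncertain by the reads that lie in both.

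Cacnb1 (ENSMUSG00000020882, GRCm38 chr11:98001508-98023034, minus strand, 18 exons), the beta gene of skeletal muscle that is also expressed in neurons, stood at 32.4 and 41.3 CPM in male KO, 35.1 and 45.4 CPM in male WT, 43.5 and 44.1 CPM in female KO and 36.1 and 47.6 CPM in female WT libraries. The groups overlapped in each sex, and the log2 fold change was -0.03 across both sexes (SE 0.17, 95% interval -0.42 to 0.36).

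Cacnb2 (ENSMUSG00000057914, GRCm38 chr2:14603088-14987908, plus strand, 22 exons), the main beta gene of heart, was nearly silent. It had 0 and 1 counts in male KO and 0 and 45 counts in male WT libraries, and 0 and 0 counts in female KO and 0 and 42 counts in female WT libraries. It passed the filter on low counts only through 1 male and 1 female WT library, each at most 0.707 CPM, while the other 2 WT libraries were at 0 like the KO ones. No fold is given for it. The libraries were amplified from 500 pg of RNA with no molecular identifiers mentioned, so how many molecules these reads stand for is not known.

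**Figure D3:**
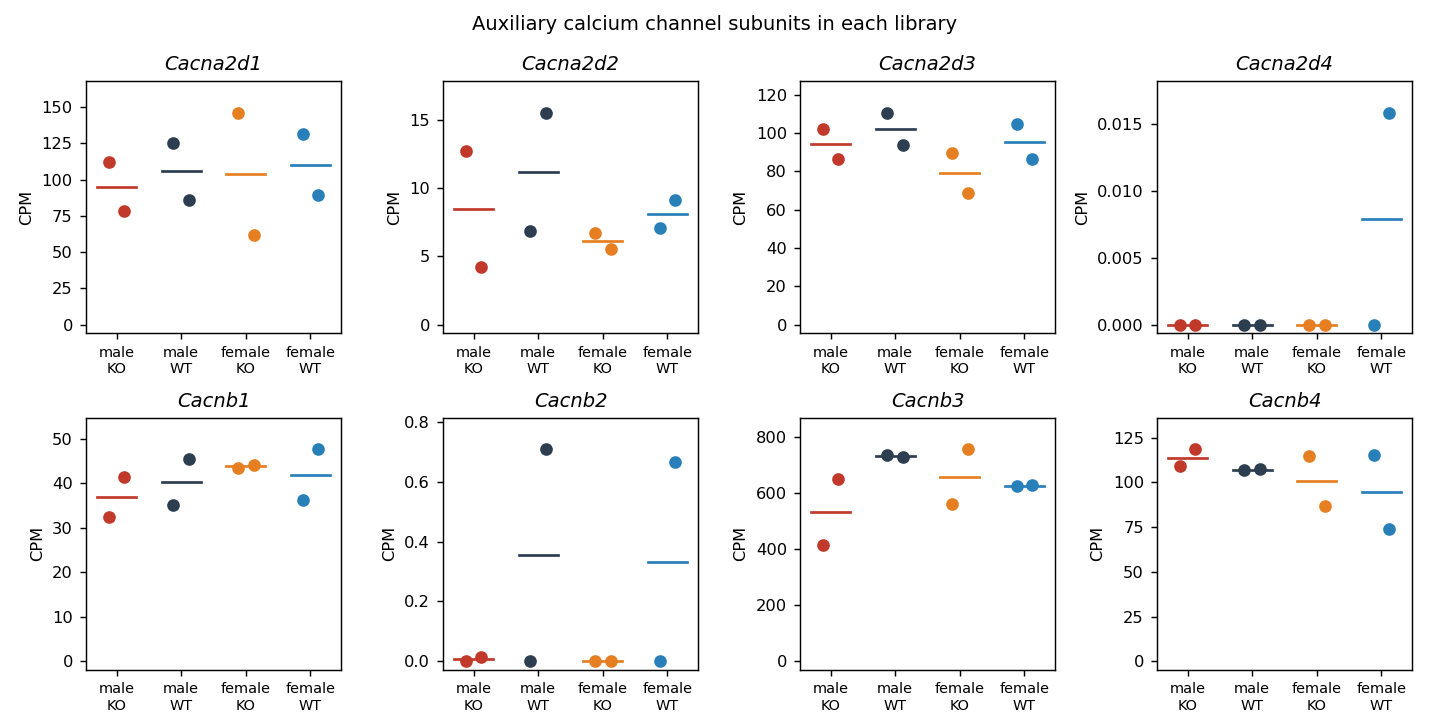
Level of each auxiliary subunit in each library, in CPM on linear axes that differ between panels, with 2 points per group for the libraries, a line at their mean, and KO left of WT within each sex. In males Cacnb3 is lower in both KO libraries, at 414 and 648 CPM, than in the WT libraries, and Cacna2d4 and Cacnb2 stay below 1 CPM.

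No auxiliary subunit passed the test in any comparison. Of the 7 tested, 0 passed edgeR's quasi-likelihood test at an adjusted p below 0.05 across both sexes, in males or in females, and each had an adjusted p of 1. Over all 22013 genes 0.00454% passed in each of these comparisons, which was Bhlha9 in each (edgeR adjusted p = 0.000211 across both sexes). The difference between the sexes passed for 0 auxiliary subunits and for 0% of all genes, with 1041 genes at an unadjusted p below 0.05. Of the 6 subunits detected in all 8 libraries, 0 reached that unadjusted level in any of the 4 comparisons. Over all genes 3.56% reached it across both sexes, 3.5% in males, 3.81% in females and 4.73% for the difference. Cacnb2 had an unadjusted edgeR p of 0.0428 across both sexes, but it was tested only because of 2 WT libraries, so nothing is read from it. DESeq2, which called 0.236% of genes across both sexes, 0.754% in males, 0.759% in females and 0.986% for the difference, also called 0 of them. The authors' deposited tables of genes past 5% list 150 genes in males and 13 in females, and 0 of the 8 subunits are in either.

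The directions of the differences are given for the 6 subunits detected in all 8 libraries, all measured in the same libraries. Across both sexes 5 of 6 had a negative log2 fold change and 1, Cacnb4, a positive one, with a median of -0.16 against 0.01 over all genes tested, of which 48.6% were negative. In males 5 of 6 were negative, with a median of -0.14 against 0.02 over all genes, of which 47.7% were negative. In females 3 of 6 were negative, with a median of -0.01 against 0 over all genes, of which 49.9% were negative. Across both sexes 0 subunits had KO and WT libraries without overlap, where 0.936% of all genes had KO wholly higher and 0.895% wholly lower. In males 1 of 7 was wholly higher in KO (Cacnb4) and 1 wholly lower (Cacnb3), against 14.5% of all genes in each direction. In females 0 were wholly higher, against 14.2% of all genes, and 1 was wholly lower (Cacna2d2), against 15.1%.

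**Figure D4:**
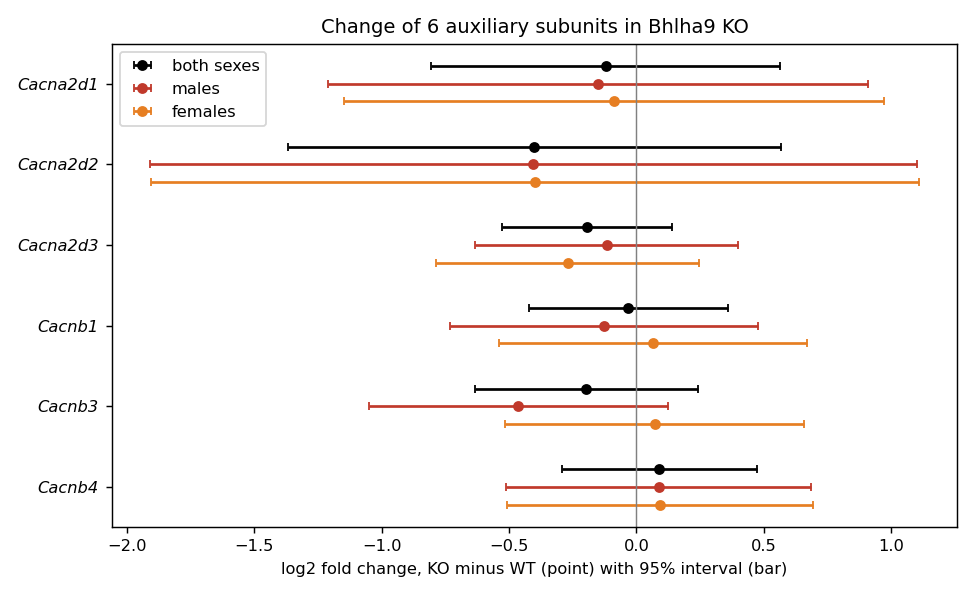
Log2 fold change, KO minus WT, of the 6 auxiliary subunits detected in all 8 libraries, as points with 95% intervals from the edgeR fits, for both sexes together, males and females. Every interval crosses 0, and they are narrowest for Cacna2d3, Cacnb1 and Cacnb4 across both sexes and widest for Cacna2d2 within a sex.

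The pores that the auxiliary subunits serve also passed no edgeR test: 0 of 8 tested of 10 pore genes, in each comparison. At an unadjusted p below 0.05 the count of pores was 0 across both sexes, 1 in males, 0 in females and 2 for the difference between the sexes, against 3.56%, 3.5%, 3.81% and 4.73% of all genes. The high-voltage-activated pores with the highest level per kilobase were Cacna1b (N-type) with 7.72 and Cacna1a (P/Q-type) with 4.11 CPM per kilobase, whereas the L-type pores Cacna1d and Cacna1c had 0.336 and 0.315. The T-type pores Cacna1h and Cacna1i had 12.3 and 7.40 CPM per kilobase. Cacna1h, the Cav3.2 pore of low-threshold mechanoreceptors, had 76.6 and 72.6 CPM in male KO against 124 and 122 CPM in male WT, and 138 and 171 CPM in female KO against 135 and 122 CPM in female WT libraries. The marker sums of C-LTMRs and other sensory neurons differed between the same male KO and WT libraries, as for Cacnb3, and their part in the male difference was not tested. Its log2 fold change in males minus that in females was -0.99 (edgeR unadjusted p = 0.0048, adjusted p = 0.980; DESeq2 adjusted p = 0.0490). By the same test Cacnb3 differed by -0.53 between the sexes and Cacna2d1 by -0.06, with neither passing. Across both sexes the log2 fold change of Cacna1a was -0.27. Cacna1d had 0.88 in males and -1.47 in females, which gave -0.30 across both sexes, and Cacna1c had 1.39 in males and -0.91 in females, which gave 0.24. With a library left out both pooled values changed sign at one end of their ranges, -0.71 to 0.27 for Cacna1d and -0.16 to 0.76 for Cacna1c.

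Other genes of the channel complex and its partners gave 0 edgeR and 0 DESeq2 calls in all 4 comparisons. Across both sexes the count at an unadjusted p below 0.05 was 0 for the gamma genes, 1 for the alpha2delta partners and 1 for the regulators, against 3.56% of all genes. Among 8 gamma genes, of which 5 were tested, the largest log2 fold changes across both sexes at 5 CPM or more were 0.70 (SE 0.74) for Cacng2 and 0.28 (SE 0.36) for Cacng5, which act on AMPA receptors more than on calcium channels. Among 9 alpha2delta partners and relatives, of which 6 were tested, Nrxn2 had -0.22, Cachd1, an alpha2delta-like protein, 0.10 and Nrxn3 0.05. Among 14 regulators of beta subunits and channels, of which 12 were tested, Stac2, an adaptor that slows inactivation of L-type channels, had -0.45 (SE 0.15, edgeR unadjusted p = 0.0188, adjusted p = 1). It stood at 141 and 179 CPM in male KO against 267 and 188 CPM in male WT, and at 197 and 201 CPM in female KO against 233 and 289 CPM in female WT libraries. Both KO libraries were below both WT libraries in each sex, and over both sexes the ranges overlapped, since both female KO libraries were above the lower male WT one. Of all tested genes 14.5% were wholly lower in KO in males and 15.1% in females, and the share lower in each sex was not counted. The marker sums of C-LTMRs and other sensory neurons differed between the same male KO and WT libraries. Their part in the level of Stac2 was not tested. Cbarp, which binds beta subunits and restrains channel activity, had -0.32, Rims1, an active zone protein that binds beta subunits, -0.21 and Stac 0.26.

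The genes whose levels followed the leading subunits most closely were found by the Pearson correlation of log2 CPM over the 8 libraries among 11858 genes of at least 5 CPM. For Cacnb3 they were Mast3, Lzts2 and Slc25a11, each with r = 0.99, and Spearman's rho was 0.93, 0.95 and 1 in that order. In all, 117 genes had r above 0.9 with Cacnb3 and 5 with Cacna2d3. For Cacna2d3 the 3 closest were Mtif2 with r = 0.95, Rfc3 with 0.92 and Gm20671 with 0.92. Without the 2 libraries farthest from the median of the subunit, Gm20671 had r = 0.57, whereas the other 5 genes kept r between 0.93 and 0.97. The points share library depth and cell makeup, were picked as the highest of many, and are given as a description.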

How the data were processed

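The authors deposited 1 table of read counts (whole numbers, unit: count) over genes in 8 libraries. Per the labels' protocols, 500 pg of RNA from sorted cells gave cDNA with SMART-Seq v4 (13 PCR cycles) and Nextera XT libraries (12 cycles), with no molecular identifiers mentioned, so counting intervals and floors cover counting error only. Per the file headers, featureCounts 1.6.1 counted exons of Ensembl GRCm38 release 97 unstranded, and a read overlapping several genes was counted in each. The submitters' processing notes name DESeq2 1.14.1, bcl2fastq 2.17.1.14 and Subread 1.6.4. Which aligner was used is not given in the sources here. The authors' deposited tables per sex hold log2 fold changes with SE (unit: log2), a test statistic (unit: score), p-values and adjusted p-values (unit: p-value) for genes past 5%.

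Symbols came from GENCODE M21 by identifier for 55394 of 55573 genes. filterByExpr (minimum count 10) kept 22013 genes. Library sizes were scaled by TMM. Two-sided tests used edgeR 4.0.16 (quasi-likelihood F, robust, in R 4.3.3), with an additive model of sex and genotype for both sexes and a fit of 4 groups for each sex and the difference, leaving 5 and 4 residual degrees of freedom. Adjustment was Benjamini-Hochberg over all tested genes, with a threshold of 0.05. SEs are the log2 fold change over the root of F, and 95% intervals use the degrees of freedom of that test, so both are approximate. The script was tested on simulated data. Replicates of a group differed by 105 to 287 in chi-square over its degrees of freedom, so none was a duplicate, and the common biological coefficient of variation was 76.6%.

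The members and gene lists were chosen with earlier results of these data known. All 8 members and Bhlha9 are named; of 4 lists of channel genes a gene is named if it passed, or if it was among the 4 largest changes of its list across both sexes at a mean of at least 5 CPM. One gene that this rule names is not reported here. Genes most alike are the 3 highest correlations. Alternatives were other size factors, no filter, DESeq2 1.42.0, no robust estimation, a replicate block, no sex term, single-sex fits, other lengths and leaving out each library.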

Additional observations from a re-analysis of the deposited data

Results flagged for a closer look

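Cacna2d4 had its single count in 1 of 4 WT libraries, with a gap of 1 of the range to the others. Cacnb2 had its single KO count in 1 of 4 KO libraries, with the same gap of 1. Both are single reads, for which this gap is fixed by the count itself.

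Among the pores, Cacna1a had 1 KO library far above the other 3, at 68.9 CPM in female KO library 1, with a gap of 0.839 of the range. Cacna1h had 1 WT library above the other 3, at 135 CPM in female WT library 1, with a gap of 0.837 of the range. Chance alone marks about 1 in 20 groups of 4 in this way.

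For 3 of the 8 tested pores KO and WT libraries did not overlap in either sex, with opposite directions in males and females. Over all tested genes male KO libraries were wholly higher for 14.5% and wholly lower for 14.5%. Female KO libraries were wholly higher for 14.2% and wholly lower for 15.1%. The share of all genes with opposite directions was not counted, so how common this pattern is among them is not known. The 3 pores were picked by this pattern, so the tests of the difference given next are not separate support for it. For Cacna1h the log2 fold change in males minus that in females was -0.99 (edgeR unadjusted p = 0.0048, adjusted p = 0.980). For Cacna1c the same difference was 2.30 (edgeR unadjusted p = 0.0281, adjusted p = 0.980). It stood at 12.6 and 10.3 CPM in male KO against 3.74 and 5.0 CPM in male WT, and at 5.70 and 1.84 CPM in female KO against 7.06 and 7.11 CPM in female WT libraries. For Cacna1d it was 2.34 (edgeR unadjusted p = 0.0644, adjusted p = 0.980). No auxiliary subunit had such a pattern.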

How the results depend on the processing

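No auxiliary subunit passed under any alternative. Cacnb2 was left aside in the counts of direction. So were the robust estimate, which cannot move a fold change, and leaving out a library of the other sex, which moved it only slightly. The fold changes of the other tested subunits kept direction in all 94 values under settings that kept all libraries of the comparison. Other size factors, no filter, DESeq2, no sex term and single-sex fits use the same libraries and moved the fold changes little. A kept direction there says little of how stable it is. The fold changes of these subunits reversed in 19 of 104 values with a library left out. With a library left out, the log2 fold change across both sexes ran from -0.42 to 0.071 for Cacna2d1, -0.13 to 0.063 for Cacnb1, -0.027 to 0.23 for Cacnb4, -0.71 to 0.27 for Cacna1d, -0.16 to 0.76 for Cacna1c, -0.12 to 0.48 for Cacng5, -0.061 to 0.19 for Cachd1, -0.11 to 0.14 for Nrxn3 and -0.44 to 0.54 for Stac. In males it ran from -0.43 to 0.14 for Cacna2d1, -1.40 to 0.27 for Cacna2d2, -0.26 to 0.0021 for Cacna2d3, -0.33 to 0.0401 for Cacnb1 and -0.84 to -0.18 for Cacnb3. In females it ran from -0.84 to 0.40 for Cacna2d1, -0.12 to 0.28 for Cacnb1, -0.16 to 0.27 for Cacnb3 and -0.19 to 0.45 for Cacnb4. Where a group is left with 1 library, that library is assumed to vary like the others.

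DESeq2 called 52 genes across both sexes, 166 in males, 167 in females and 217 for the difference, against 1, 1, 1 and 0 by edgeR; the cause was not tested. It called Cacna1h for the difference, at -1.001. Single-sex fits called 0 genes in males and 0 in females, with fewer libraries to estimate the spread. Over all 22013 tested genes same-numbered libraries did not deviate together (r = -0.0143 in males and 0.00147 in females). Among the 7 tested subunits, library 1 exceeded library 2 in all 4 groups for Cacna2d1 and Cacna2d3. It was below library 2 in all 4 groups for Cacnb1. These orders held for 7.90% and 7.22% of all tested genes, and for 9.38% and 9.18% of those with a mean of at least 5 CPM. Whether equal numbers mark a shared sort or day is not given. The log2 fold change of Cacna2d3 across both sexes was -0.20 with a replicate block and -0.19 without. With the replicate block 1 gene passed across both sexes, 0 in males, 0 in females and 0 for the difference. In the single-sex fits and in the block fits within a sex, the deleted gene Bhlha9 did not pass either. Those fits therefore cannot tell whether a subunit changed.

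Levels per kilobase over the longest coding transcript, chosen after seeing the data, were 13.95 for Cacna2d1, 25.1 for Cacna2d3, 12.0 for Cacnb1, 0.0440 for Cacnb2 and 233 for Cacnb3. The ranks were then 3 for Cacna2d1, 2 for Cacna2d3, 5 for Cacnb1 and 4 for Cacnb4. Without division by length the ranks were 3 for Cacna2d1, 4 for Cacna2d3 and 5 for Cacnb1. Cacnb3 ranked 1 in each.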

Other observations

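Thrombospondins bind the alpha2delta protein of Cacna2d1, and Thbs3 was the only tested gene of the 9 partners and relatives whose KO and WT libraries did not overlap over both sexes. It was named after its values were seen, as its mean was below 5 CPM. It stood at 1.20 and 0.555 CPM in male KO against 5.50 and 2.74 CPM in male WT, and at 0.979 and 1.04 CPM in female KO against 3.32 and 2.11 CPM in female WT libraries. The log2 fold change was -1.83 (SE 0.55, edgeR unadjusted p = 0.0107, adjusted p = 1), with lower values in 4 of 4 KO libraries, and 0.895% of all tested genes were wholly lower in KO in the same way.

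The summed levels of markers of other cells are given here over both sexes. Peptidergic markers ran between 236 and 1707 CPM in KO and between 327 and 1475 CPM in WT libraries, nonpeptidergic and itch markers between 5.76 and 210 CPM in KO and between 3.06 and 42.8 CPM in WT, and myelinated markers between 284 and 2061 CPM in KO and between 241 and 374 CPM in WT. Immune markers stayed at or below 23.2 CPM in KO and 26.9 CPM in WT, vascular and fibroblast markers at or below 65.8 CPM in KO and 41.4 CPM in WT, red blood cell markers at or below 1.11 CPM in KO and 19.8 CPM in WT, and skeletal muscle markers at or below 15.3 CPM in KO and 21.4 CPM in WT. In males the peptidergic, nonpeptidergic and myelinated sums were higher in both KO libraries than in both WT libraries, and in females they overlapped. Some sums of cells other than neurons also separated. Vascular and fibroblast sums were higher in both KO libraries than in both WT libraries in males, and lower in both in females. Red blood cell and skeletal muscle sums were lower in both male KO libraries than in both male WT libraries, and overlapped in females. Immune and glial sums overlapped in each sex. The part of all these markers in the levels of the subunits was not tested.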
